A study of Mus musculus with 9 samples.

Results

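The abdominal aorta of mice given CaCl2 and injected IgG was compared with that of sham mice across the genome, on 6 of the 9 arrays of the series, 3 in each group. Every mouse was uMT, of the strain C57BL/6. As background, the uMT allele removes the membrane-bound IgM heavy chain, which arrests B cells early in the bone marrow and leaves few mature B cells and little antibody of the animal's own. Sham mice had saline placed around the abdominal aorta. In the other group 0.5 M CaCl2 was placed there instead, mouse polyclonal IgG was injected into the peritoneum, and the aorta was taken on day 7. A group given CaCl2 without IgG, also 3 arrays and day 7, shared the model fit and is used only for values set side by side. Not given in the sources used here are the sampling day of the sham mice, the age of the animals and the dose and timing of IgG. The study concerns B cells, immunoglobulin and Syk, and this comparison asks how an aorta given CaCl2 in a mouse injected with IgG differs from a sham aorta in a mouse not given IgG. It changes CaCl2 and IgG together, so their parts cannot be told apart within it.

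As background, the wall of the aorta is built from layers of contractile smooth muscle and elastic fibres, with fibroblasts, nerves and fat on its outer side. CaCl2 on the outer surface leaves calcium deposits on elastic fibres, draws in leukocytes and leads to breakdown of the matrix and dilatation, which makes it a model of abdominal aortic aneurysm. Antibody of the IgG class acts on leukocytes through Fc gamma receptors, whose shared signalling chain Fcer1g recruits Syk.

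Values are log2 signals with the 75th percentile of the same array subtracted, 1 probe per gene, and a change is the difference between group means on that scale. A gene is said to have risen or fallen where its adjusted p from limma was below 0.05 over all 15921 genes tested. The labels do not say that the 3 samples of a group came from separate animals, so a p-value reflects the spread among 3 samples a group, some of which may be technical. The number of arrays limits the precision.

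The arrays were not alike within each group. On the first principal component, with 69.9% of the variance, sham arrays lay between -102 and -77.0, CaCl2 arrays between 32.1 and 68.6, CaCl2+IgG replicates 1 and 2 at 51.5 and 50.8, and CaCl2+IgG replicate 3 at 4.15. Replicate 3 stood alone on the second component, at -72.1 against 1.12 to 15.0 for the 8 others. Its 75th percentile was 270 in raw signal, close to the sham arrays at 267 to 302 and below the other CaCl2-treated arrays at 381 to 496. The ratio of spike-in signal to background was 1014 on it, 867 to 1226 on sham arrays and 664 to 756 on the 5 others. Sham replicate 3 was the only array on its slide and had the lowest mean level of macrophage, T cell and B cell genes of the 9 arrays. The part of these differences in the results was not tested, and counts are therefore given with and without CaCl2+IgG replicate 3.

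With all arrays, 4749 of 15921 genes (29.8%) differed between CaCl2+IgG and sham, 2382 higher (15.0%) and 2367 lower (14.9%). Of these, 1597 rose and 998 fell by at least 2-fold. Without replicate 3, 6538 genes (41.1%) differed, 2947 higher (18.5%) and 3591 lower (22.6%). The 2 fits shared 4358 genes, all changed in the same direction. Another 391 genes were called only with replicate 3 and 2180 only without it. The 3 arrays of CaCl2+IgG lay wholly above the 3 sham arrays for 3256 genes (20.5%) and wholly below for 3905 (24.5%). Scaling to the array median in place of the 75th percentile moved the median change of all genes from -0.10 to 0.14 and the split to 2095 higher and 855 lower, so the balance between rises and falls rests on the scaling. Leaving out CaCl2+IgG replicate 2 gave 3036 calls, and falls numbered 1452, 1457 and 1385 without sham replicate 2, sham replicate 3 and CaCl2+IgG replicate 2.

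Genes of contractile smooth muscle fell together, and this was the most uniform decrease among the lists examined. Of 20 measured members 19 fell and 0 rose, with or without replicate 3, against 14.9% of all genes lower. Their median change was -2.07, and -2.15 without replicate 3, against -0.10 and -0.06 for all genes. In each of the 19, all 3 CaCl2+IgG arrays were below all 3 sham arrays. Myh11, the myosin heavy chain of smooth muscle, read 6.91, 6.67 and 7.00 on the sham arrays and 4.26, 4.31 and 4.88 with CaCl2+IgG. The groups were well apart, and Myh11 fell by 2.38 ± 0.32 (SE), to 0.193 of its sham level (adjusted p = 0.00144). Acta2, smooth muscle actin and the brightest of these probes with Tagln, read 9.92, 9.86 and 10.04 in sham and 8.33, 8.21 and 8.68 with CaCl2+IgG, and fell by 1.53 ± 0.23 (SE) (adjusted p = 0.00211). Myocd, the coactivator of serum response factor that drives contractile genes, read 2.95, 3.19 and 3.33 in sham and -0.32, 0.24 and 1.49 with CaCl2+IgG. It fell by 2.69 ± 0.48 (SE) (adjusted p = 0.00469), and the third array was the least reduced of the 3. Ppp1r14a, an inhibitor of myosin phosphatase, fell by 2.75 and the tropomyosin Tpm2 by 2.36 (adjusted p = 0.00086 and 0.00075). Tagln fell least, by 1.06 (adjusted p = 0.00404). Pln, which restrains the calcium pump of the sarcoplasmic reticulum, had a change of -0.08 (adjusted p = 0.901) at a dim probe. In whole tissue, fewer muscle cells and less RNA per muscle cell cannot be told apart. Reference genes drifted less: of 12, Actb, Gapdh and Ywhaz fell, by 0.59, 0.48 and 0.69, and Gusb rose by 1.26, but with scaling to the median only 1 of the 12 was called and their median changed sign. Without CaCl2+IgG replicate 3, 1 rose and 2 fell. The reference calls numbered 1 without CaCl2+IgG replicate 2, and 2 without CaCl2+IgG replicate 1, sham replicate 2 or sham replicate 3.

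Serum response factor binds the CArG box (CC, then a run of A and T, then GG). Myl9, the regulatory myosin light chain, was the only 1 of 16 list members with a RefSeq promoter (250 bases before to 50 after the start site) that held the box there, 6.25% against 1.81% of 27025 genes with a promoter. Elements of these genes farther out were not in the window. The stretch of Myl9 with the box in capitals lies at chr2:156775283-156775342 on the plus strand (GRCm38.p6), and Myl9 itself fell by 1.40 (adjusted p = 0.00075).
Myl9: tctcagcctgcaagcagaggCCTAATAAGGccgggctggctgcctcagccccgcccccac

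Ion channels and calcium handling genes of vascular muscle moved the same way in 8 of 12 members, and 1 rose (1 higher and 9 lower without replicate 3). Kcnmb1, the beta subunit of the large-conductance calcium-activated potassium channel, fell by 2.12 ± 0.22 (SE) (adjusted p = 0.000637), whereas its pore subunit Kcnma1 had a change of -0.22 (adjusted p = 0.271). Kcna5, a voltage-gated potassium channel, fell by 1.88 (adjusted p = 0.00605), the L-type calcium channel Cacna1c by 1.24 (adjusted p = 0.00109) and the calcium pump Atp2a2 by 1.58 (adjusted p = 0.000406). Trpc6, a receptor-operated cation channel, went the other way: it read -3.87, -5.37 and -4.62 in sham, where 1 of 3 arrays was well above background, and -1.71, -1.88 and -3.35 with CaCl2+IgG. It rose by 2.30 (adjusted p = 0.0154), a call lost without CaCl2+IgG replicate 1, CaCl2+IgG replicate 2 and sham replicate 2 in turn (adjusted p 0.0528 to 0.0555).

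**Figure D1:**
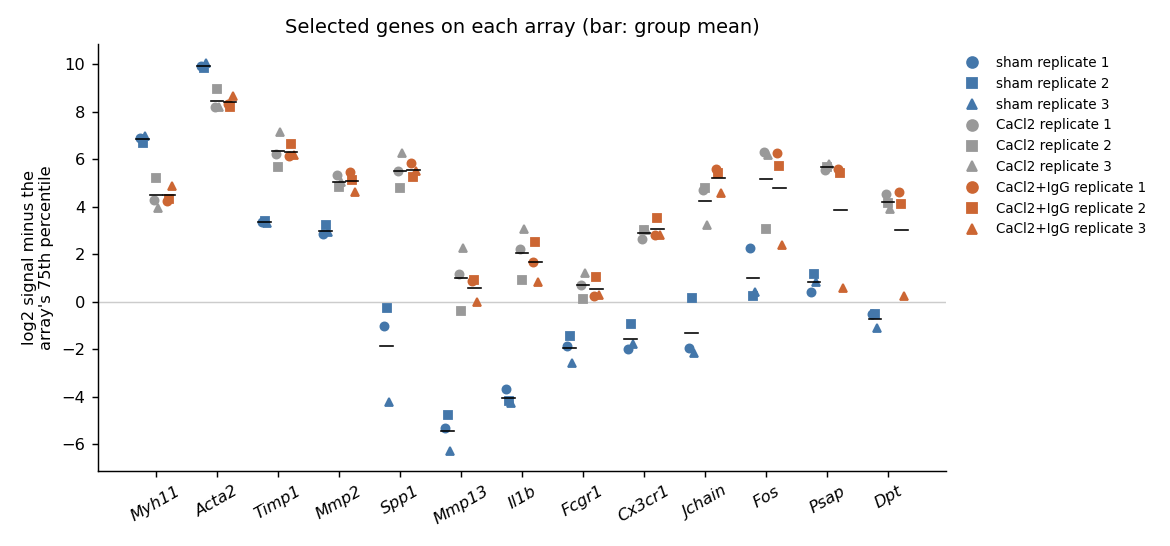
Log2 signal of 13 genes minus the array's 75th percentile (y axis), by group, with a symbol for each replicate and a bar for the group mean. Myh11 and Acta2 lie lower with CaCl2+IgG than in sham and most others higher, while CaCl2+IgG replicate 3 sits among the sham arrays for Psap and just above them for Fos and Dpt.

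Markers of monocytes and macrophages rose in 19 of 23 measured members and fell in 1, against 15.0% of all genes higher, and the counts without replicate 3 were 18 and 2. The median change of the list was 2.25. Cx3cr1, the fractalkine receptor of monocytes, read -1.99, -0.95 and -1.77 in sham and 2.82, 3.52 and 2.81 with CaCl2+IgG, a rise of 4.62 ± 0.30 (SE) or 24.6-fold (adjusted p = 0.000177). The 3 treated arrays lay close together and far above sham. Lyz2, lysozyme of myeloid cells, read 3.12, 3.07 and -0.15 in sham and 5.56, 5.25 and 5.22 with CaCl2+IgG, and rose by 3.33 ± 0.76 (SE) (adjusted p = 0.0126). Sham replicate 3 read far below the other sham arrays. Chil3, a secreted lectin of alternatively activated macrophages, was not well above background on any sham array and was at least 24.0-fold higher with CaCl2+IgG (means 0.41 and -4.80, adjusted p = 0.00517). Such bounds set the mean of the brighter group against, on each array of the other group, the higher of the lowest signal well above background and the probe's own signal. Mertk, a receptor for the uptake of dying cells, fell by 1.03 (adjusted p = 0.00765), and Cd163 had a change of -0.88 (adjusted p = 0.381).

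Neutrophil genes rose in 8 of 12 members and fell in 0 (7 higher and 1 lower without replicate 3). S100a9, a calcium-binding alarmin, read -5.00, -2.99 and -2.03 in sham, with 2 of 3 arrays well above background, and 2.56, 2.75 and 3.12 with CaCl2+IgG, a rise of 6.15 ± 0.66 (SE) (adjusted p = 0.000718). Its partner S100a8, also well above background on 2 sham arrays, rose by 5.15 (adjusted p = 0.000264). Clec4e, a lectin receptor also made by macrophages, was at least 18.8-fold higher (means 0.01 and -6.20, adjusted p = 0.000165). The granule genes Elane and Camp had changes of -0.26 and -0.17 (adjusted p = 0.416 and 0.611), and the granule genes Ngp and Ltf did not pass the filter on dim probes. The count fell to 5 without any 1 sham array and to 4 without CaCl2+IgG replicate 2.

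T and NK cell genes rose in 15 of 20 members and fell in 0 (13 higher and 1 lower without replicate 3). The calls numbered 10 without CaCl2+IgG replicate 2, 11 without sham replicate 2, and 12 without CaCl2+IgG replicate 1, sham replicate 1 or sham replicate 3. Cd3d, a chain of the T cell receptor complex, read -2.60, -2.90 and -4.58 in sham, with 2 of 3 arrays well above background, and 0.62, 1.26 and 1.47 with CaCl2+IgG, and rose by 4.47 ± 0.50 (SE) (adjusted p = 0.00079). Klrb1c, the NK1.1 antigen of NK cells in this strain, was at least 4.71-fold higher (means -1.98 and -5.92, adjusted p = 0.000192). Gzma, a granzyme of cytotoxic cells, rose by 2.35 (adjusted p = 0.0325), while Cd4 and Cd3e had changes of -0.64 and 0.63 (adjusted p = 0.0737 and 0.0883).

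Genes of B and plasma cells were measured too, although both groups carry the uMT genotype. Of 13 members 8 rose and 0 fell, and without replicate 3 these counts were 8 and 2. Jchain, the joining chain of secreted IgA and IgM, read -1.95, 0.17 and -2.17 in sham and 5.58, 5.41 and 4.60 with CaCl2+IgG. It had the largest rise among genes well above background on all 6 arrays and called in both fits, 6.51 ± 0.66 (SE) or 91.3-fold (adjusted p = 0.000627). Mzb1, which helps fold immunoglobulin in plasma cells, was at least 14.7-fold higher (means -0.34 and -4.98, adjusted p = 2.9e-05) and the B cell coactivator Pou2af1 at least 16.9-fold (means -0.14 and -5.38, adjusted p = 0.000627). Ms4a1, a marker of B cells, rose with all arrays. Its call was lost without CaCl2+IgG replicate 1, sham replicate 1, sham replicate 2 and sham replicate 3 in turn (adjusted p 0.0624 to 0.0658, limma). Cd79a, which carries the signal of the B cell's antigen receptor, read -2.61, -2.11 and -1.77 in sham and -0.66, -1.25 and 0.11 with CaCl2+IgG, a change of 1.56 that did not pass the test (adjusted p = 0.0697). Pax5, the factor that fixes B cell identity, had a change of -1.17 (adjusted p = 0.203) and was lower by the fit without replicate 3, where it fell by 1.96 (adjusted p = 0.00844). The CaCl2 arrays without IgG also read high for Jchain, at 4.69, 4.80 and 3.22.

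Of 7 mast cell genes 3 fell and 0 rose (0 higher and 2 lower without replicate 3): Mcpt4, a chymase of connective tissue mast cells, Kit, the receptor for stem cell factor, and the carboxypeptidase Cpa3. The share of all genes lower was 14.9%, and 22.6% without replicate 3, where the mast cell falls were near that share. Mcpt4 read 3.32, 3.38 and 1.97 in sham and -0.07, 1.42 and -0.30 with CaCl2+IgG, and fell by 2.54 ± 0.53 (SE) (adjusted p = 0.00894). The mean deviation of the list was 1.43, 1.32 and 0.24 in sham and -0.83, 0.45 and -0.79 with CaCl2+IgG, so the groups overlapped. CaCl2+IgG replicate 2 was nearest to sham, and without it 5 members fell. Cpa3 was called only with replicate 3 (a fall of 1.84, adjusted p = 0.0265, and 0.0515 to 0.0868 without CaCl2+IgG replicate 1, CaCl2+IgG replicate 3, sham replicate 1 and sham replicate 2 in turn).

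Receptors for the Fc part of IgG rose with their signalling chains in 6 of 10 list members, with or without replicate 3, and none fell. Fcgr1, the high-affinity activating receptor, read -1.88, -1.44 and -2.58 in sham and 0.24, 1.04 and 0.29 with CaCl2+IgG. Groups did not overlap, and Fcgr1 rose by 2.49 ± 0.38 (SE) (adjusted p = 0.00233). Fcgr4, an activating receptor, rose by 2.69 (adjusted p = 0.00823) and Fcgr2b, the inhibitory receptor, by 2.66 (adjusted p = 0.00285), so activating and inhibitory receptors rose together. Fcgr3, another activating receptor, rose by 2.33 (adjusted p = 0.0184, and 0.0537 without CaCl2+IgG replicate 2). The chain Fcer1g read 3.69, 3.86 and 2.02 in sham and 5.44, 5.44 and 5.59 with CaCl2+IgG, and rose by 2.30 ± 0.42 (SE) (adjusted p = 0.00517). Its groups again did not overlap. Fcgrt, the neonatal receptor that keeps IgG in circulation, had a change of -0.01 (adjusted p = 0.972).

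Of 20 genes of Syk signalling, 19 rose and 0 fell, and the counts were 18 and 0 without replicate 3. Syk itself read 1.09, 1.38 and 0.59 in sham and 2.01, 2.50 and 2.59 with CaCl2+IgG, and rose by 1.34 ± 0.27 (SE), or 2.54-fold (adjusted p = 0.00793). Fgr and Lyn, Src-family kinases that act with it, rose by 3.85 and 2.87 (adjusted p = 0.000645 and 0.00108). Btk, a kinase downstream of Syk, rose by 3.55, the adaptor Lat2 by 3.59 and the exchange factor Vav1 by 2.98 (adjusted p = 0.000231, 0.00387 and 0.000391). For Fgr, Lyn, Btk and Lat2, 1 of 3 sham arrays was not well above background. Vav3 had a change of 0.46 (adjusted p = 0.0644). These genes are expressed by leukocytes at large, and the mean deviation of the macrophage list from its 9-array level was -1.21, -1.07 and -2.12 on the sham arrays and 0.75, 0.77 and 0.73 with CaCl2+IgG, against -1.34, -1.06 and -1.92 and 0.55, 0.77 and 0.65 for the Syk list. The part of leukocyte number in the Fc receptor and Syk results was not tested.

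Complement genes rose in 14 of 19 members and fell in 1 (14 higher and 1 lower without replicate 3). C3, the central component, read 6.33, 6.67 and 7.28 in sham and 9.11, 9.05 and 8.98 with CaCl2+IgG, and rose by 2.29 ± 0.23 (SE) (adjusted p = 0.000591). C4b of the classical pathway rose by 2.77 (adjusted p = 0.000334) and C1qa, which binds antibody complexes, by 2.68 (adjusted p = 0.0133). Cfi, a protease that inactivates C3b, was at least 21.2-fold higher (means 0.18 and -6.14, adjusted p = 0.000177). Cd59a, an inhibitor of the membrane attack complex, fell by 0.72 (adjusted p = 0.00764).

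**Figure D2:**
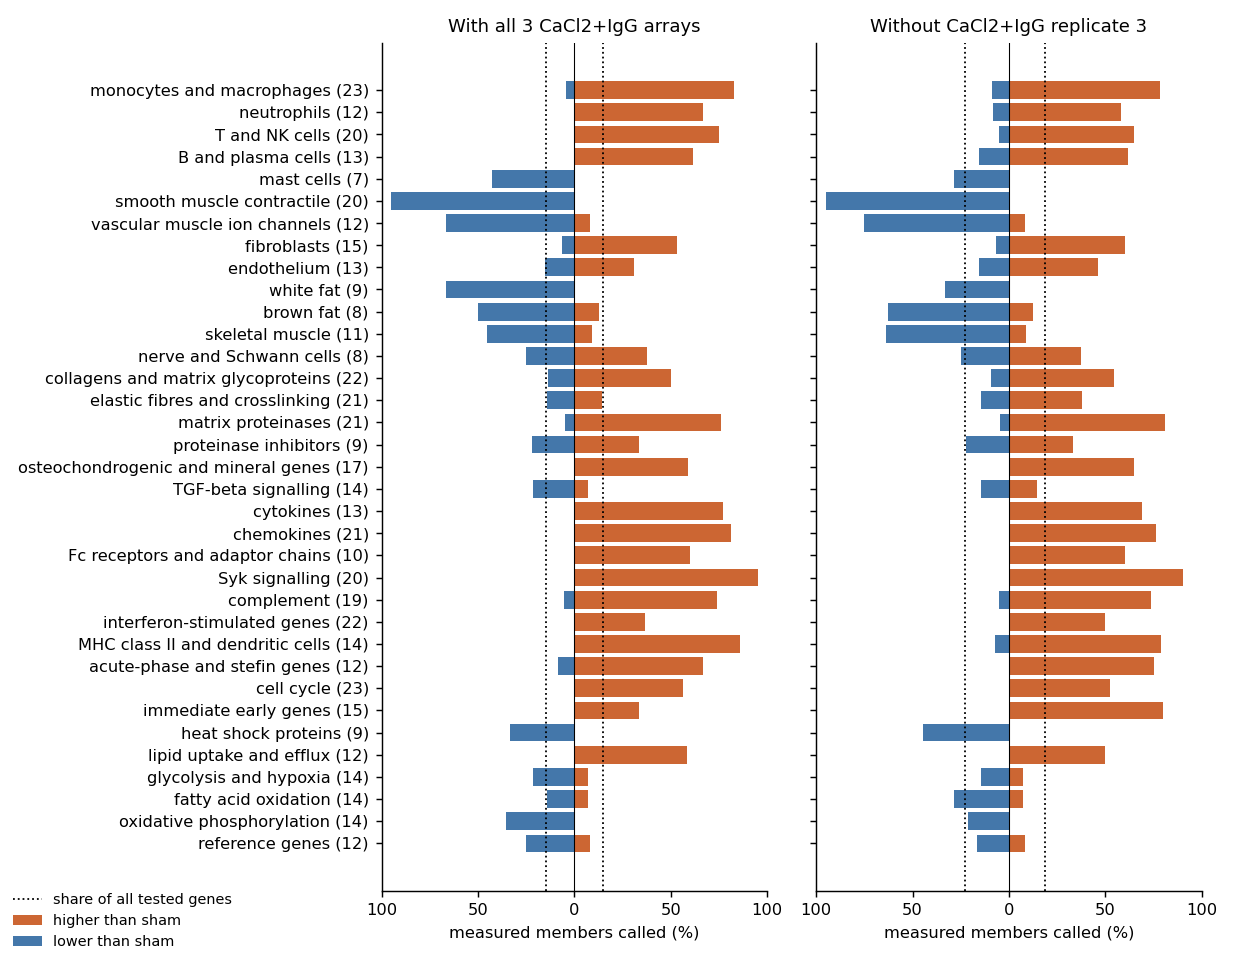
Share of the measured members of each gene list with at least 7 of them (number in brackets) that were called higher (right) or lower (left) in CaCl2+IgG than in sham, in percent, with all arrays and without CaCl2+IgG replicate 3; dotted lines mark the shares among all 15921 genes. Smooth muscle genes reach furthest to the left in both panels, and immediate early genes gain most when replicate 3 is left out, from 5 to 12 of 15.

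Among cytokines 10 of 13 rose and 0 fell (9 higher and 0 lower without replicate 3). Il1a, Il10, Ifng, Csf2 and Csf3 did not pass the filter on dim probes and are not among the 13. Il1b, a cytokine of activated myeloid cells, read -3.66, -4.19 and -4.26 in sham, where 1 of 3 arrays was well above background, and 1.68, 2.51 and 0.83 with CaCl2+IgG, and rose by 5.71 ± 0.57 (SE) (adjusted p = 0.000599). Il6 was well above background on no sham array, at -4.99, -6.40 and -6.31, and read 0.71, 1.47 and -0.76 with CaCl2+IgG, at least 25.9-fold higher (adjusted p = 0.00563). Replicate 3 was the lowest of the treated arrays for both. Tnfsf11, the ligand RANKL of osteoclast formation, was at least 4.70-fold higher (means -1.99 and -6.27, adjusted p = 0.00031) and Tnf at least 2.89-fold (means -2.69 and -5.73, adjusted p = 0.00238). Il6, Tnfsf11 and Tnf passed the filter only through CaCl2+IgG, so their rises, and with them part of the count, were set by that choice.

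Chemokines rose in 17 of 21 members and fell in 0 (16 higher and 0 lower without replicate 3), with a median of 2.89, the highest median of any list with over 10 measured genes. Ccl2, which attracts monocytes, read -0.18, -0.52 and -2.04 in sham and 2.93, 2.76 and 1.58 with CaCl2+IgG, and rose by 3.34 ± 0.60 (SE) or 10.1-fold (adjusted p = 0.00483). Cxcl14, a chemokine of epithelia and fibroblasts, rose by 4.91 (adjusted p = 0.000627). The neutrophil attractants Cxcl3 and Cxcl5 were at least 12.7-fold and 11.7-fold higher (sham means -6.30 and -6.26, CaCl2+IgG means -0.55 and -0.68, adjusted p = 0.00063 and 0.000854). Ccl11, Cxcl9, Cxcl10 and Cxcl13 did not pass the test, at 0.69, 1.45, 2.89 and 2.52 (adjusted p = 0.205, 0.467, 0.138 and 0.0682). Cxcl9 and Cxcl13 were well above background on 2 of 3 sham arrays.

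Acute-phase and stefin genes rose in 8 of 12 members and fell in 1 (9 higher and 0 lower without replicate 3). The fall was that of Stfa2 (by 0.94, adjusted p = 0.0485). Without any 1 sham array the list held 6 calls in place of 9, and without CaCl2+IgG replicate 2 it held 7. Stfa3, a cysteine protease inhibitor of myeloid cells, had the highest bound in the comparison, at least 185-fold, with sham arrays at -4.23, -4.80 and -6.01 and CaCl2+IgG arrays at 4.02, 2.31 and 3.65 (adjusted p = 0.000192). Saa3, serum amyloid A of macrophages and fibroblasts, read -5.26, -3.55 and -3.54 in sham, with 2 of 3 arrays well above background, and 2.37, 6.01 and 3.83 with CaCl2+IgG, and rose by 8.19 ± 0.85 (SE) (adjusted p = 0.000636). The treated arrays of Saa3 spanned a wide range, with replicate 2 highest.

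Interferon-stimulated genes were higher on most arrays but passed the test less evenly. Of 22 members 8 rose and 0 fell, 11 rose and 0 fell without replicate 3, and in 19 all CaCl2+IgG arrays lay above all sham arrays, against 20.5% of all genes. Left out in turn, the 5 other arrays brought the count to 3 or 4. The mean deviation of the list was -1.20, -0.87 and -1.30 in sham and 0.16, 0.93 and -0.21 with CaCl2+IgG, lowest on replicate 3. Bst2, a membrane tether of virions, read 0.02, -0.15 and -0.39 in sham and 3.39, 4.47 and 1.87 with CaCl2+IgG, and rose by 3.42 ± 0.58 (SE) (adjusted p = 0.0036). Isg15, a ubiquitin-like modifier, read -0.19, -0.12 and -0.28 in sham and 2.93, 3.84 and 1.06 with CaCl2+IgG, and rose by 2.81 (adjusted p = 0.0309). Its call was lost without CaCl2+IgG replicate 1, CaCl2+IgG replicate 2, sham replicate 1, sham replicate 2 and sham replicate 3 in turn (adjusted p 0.074 to 0.0996). Oas1a, a sensor of double-stranded RNA, rose by 2.15 (adjusted p = 0.0111). Rsad2, the antiviral enzyme viperin, had a change of 1.99 (adjusted p = 0.0776) and rose by 2.42 without replicate 3 (adjusted p = 0.0435). Stat2 and Irf9, which take part in the interferon-activated complex, had changes of 0.60 and 0.32 (adjusted p = 0.196 and 0.33).

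The complex that holds Stat2 and Irf9 binds GAAA repeats spaced by 2 bases, searched here as GAAA, any 2 bases and GAAA. On either strand of the promoter window this sequence was present in 9 of 17 list members with a RefSeq promoter, 52.9%, against 3.99% of the 27025 genes. Overlapping matches were counted once per gene. Of these, 4 are shown because they differ in how they passed the test, with the matches in capitals. In Rsad2 the match is on the other strand. They lie at chr4:156200857-156200916 (Isg15), chr8:71537563-71537622 (Bst2), chr5:120907526-120907585 (Oas1a) and chr12:26456533-26456592 (Rsad2) of GRCm38.p6, all on the minus strand and upstream of the start site.
Isg15: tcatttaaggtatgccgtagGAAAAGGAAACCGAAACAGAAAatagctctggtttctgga
Bst2: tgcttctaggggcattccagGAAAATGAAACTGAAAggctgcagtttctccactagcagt
Oas1a: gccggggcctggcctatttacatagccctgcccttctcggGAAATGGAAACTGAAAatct
Rsad2: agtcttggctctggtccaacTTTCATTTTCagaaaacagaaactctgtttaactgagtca
The capitals cover 3 overlapping matches in Isg15, 2 in Bst2 and 2 in Oas1a. Ifit1, Ifit3 and Stat2 also held the sequence and had changes of 1.54, 1.00 and 0.60 (adjusted p = 0.0854, 0.155 and 0.196), so members with the sequence did not all pass the test. In Ifih1 and Ddx58 the match lay after the start site, with changes of 1.05 and 0.85 (adjusted p = 0.0119 and 0.0739).

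Genes of MHC class II and dendritic cells rose in 12 of 14 members and fell in 0 (11 higher and 1 lower without replicate 3). Ccr7, the receptor that guides dendritic cells and T cells to lymph nodes, read -2.07, -1.11 and -1.27 in sham and 1.37, 2.05 and 1.67 with CaCl2+IgG, and rose by 3.17 ± 0.31 (SE) (adjusted p = 0.000591). Itgax, an integrin chain of dendritic cells and macrophages, rose by 2.84 (adjusted p = 0.00459), and H2-Aa and H2-Ab1, the chains of an MHC class II molecule, by 1.96 and 1.96 (adjusted p = 0.0192 and 0.00597). Flt3, a receptor of dendritic cell precursors, rose by 2.54 at the probe used (adjusted p = 0.0034), but its other kept probe changed by -0.41. Ciita, the activator of class II genes, had a change of -1.43 (adjusted p = 0.0942) and fell by 2.21 without replicate 3 (adjusted p = 0.000451).

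Proteinases that degrade matrix rose in 16 of 21 members and fell in 1, with 17 and 1 without replicate 3, and the median change was 1.42. Calls numbered 12 without CaCl2+IgG replicate 2, and 13 without CaCl2+IgG replicate 1, sham replicate 1 or sham replicate 3, in place of 17. Mmp2, a gelatinase of fibroblasts and muscle, read 2.84, 3.22 and 2.92 in sham and 5.47, 5.13 and 4.63 with CaCl2+IgG, and rose by 2.08 ± 0.23 (SE) or 4.23-fold (adjusted p = 0.00079). Mmp9, a gelatinase of leukocytes, read -3.11, -2.03 and -5.53 in sham, with 2 of 3 arrays well above background, and -2.16, -1.77 and -2.47 with CaCl2+IgG. Here the groups overlapped, and the change of 1.42 did not pass the test (adjusted p = 0.177), except without sham replicate 2 (adjusted p = 0.0459). Mmp12, macrophage elastase, rose by 2.40 (adjusted p = 0.0289), a call lost without CaCl2+IgG replicate 1, CaCl2+IgG replicate 2 and sham replicate 1 in turn (adjusted p 0.0531 to 0.0925). Mmp13, a collagenase, was at least 28.1-fold higher, from -5.32, -4.77 and -6.30 to 0.88, 0.91 and -0.02 (adjusted p = 0.000729). Ctss, an elastin-degrading cathepsin, rose by 2.87 and Adam8 of leukocytes by 2.61 (adjusted p = 0.00387 and 0.00302). Adamts1, which cleaves proteoglycans, fell by 0.97 (adjusted p = 0.0219).

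Inhibitors of these enzymes moved both ways, with 3 of 9 higher and 2 lower (3 higher and 2 lower without replicate 3). Among all genes 15.0% rose and 14.9% fell, and 18.5% and 22.6% without replicate 3. Timp1 read 3.38, 3.41 and 3.33 in sham and 6.15, 6.66 and 6.16 with CaCl2+IgG, and rose by 2.95 ± 0.34 (SE) or 7.73-fold (adjusted p = 0.000809). Slpi, an inhibitor of leukocyte elastase, rose by 5.31 (adjusted p = 0.000406), whereas Timp4, a form of muscle and fat, fell by 1.57 (adjusted p = 0.00221). Without any 1 sham array the inhibitor list held 3 calls in place of 5.

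Collagens and matrix glycoproteins rose in 11 of 22 members and fell in 3 (12 higher and 2 lower without replicate 3). The shares of all genes were 15.0% higher and 14.9% lower, and 18.5% and 22.6% without replicate 3. The falls in this list were thus near or below the share of all genes. Thbs4, a thrombospondin of injured muscle and tendon, was well above background on no sham array, at -5.53, -5.54 and -6.30, and read 2.86, 1.14 and 2.96 with CaCl2+IgG, at least 93.2-fold higher (adjusted p = 0.000177). Col5a3 rose by 2.71 and Col8a1, a short-chain collagen of vessel walls, by 2.26 (adjusted p = 0.00281 and 0.000467). Col1a1, the main fibrillar collagen, read 5.80, 6.72 and 7.15 in sham and 7.60, 7.43 and 7.48 with CaCl2+IgG, and rose by 0.95 (adjusted p = 0.0435), with the call lost without CaCl2+IgG replicate 1, CaCl2+IgG replicate 2, CaCl2+IgG replicate 3, sham replicate 1 and sham replicate 2 in turn (adjusted p 0.0537 to 0.112). The basement membrane chains Col4a1 and Col4a2 fell, by 0.70 and 0.45 (adjusted p = 0.0306 and 0.039). Without CaCl2+IgG replicate 1 the list held 8 calls, and without sham replicate 2 it held 9.

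Of 21 genes of elastic fibres 3 rose and 3 fell, close to the 15.0% and 14.9% of all genes, and without replicate 3 these were 8 and 3, against 18.5% and 22.6%. Eln, elastin itself, read 2.73, 3.62 and 3.31 in sham and 2.70, 3.13 and 2.11 with CaCl2+IgG, overlapping ranges with a change of -0.58 (adjusted p = 0.235). Ltbp2, a fibrillin-binding protein of the microfibril, read 2.88, 2.81 and 3.02 in sham and 6.80, 6.77 and 6.50 with CaCl2+IgG, and rose by 3.79 ± 0.17 (SE) (adjusted p = 2.9e-05). Its relatives Ltbp1 and Ltbp4, which store latent TGF-beta, fell by 1.30 and 1.26 (adjusted p = 0.00168 and 0.00395). Fbln5, needed for elastic fibre assembly, fell by 0.62 (adjusted p = 0.00913).

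Genes of cartilage, bone and mineral rose in 10 of 17 members and fell in 0 (11 higher and 0 lower without replicate 3). Spp1, osteopontin, read -1.04, -0.28 and -4.21 in sham, where 2 of 3 arrays were well above background and replicate 3 was far below the others, and 5.86, 5.25 and 5.50 with CaCl2+IgG. It rose by 7.38 ± 0.89 (SE) (adjusted p = 0.000984). Ibsp, bone sialoprotein, rose by 4.46 (adjusted p = 0.000863). Col2a1 and Col11a1, cartilage collagens, were at least 21.6-fold and 12.1-fold higher (sham means -5.35 and -5.90, CaCl2+IgG means 0.21 and -0.62, adjusted p = 0.000753 and 0.000729). Sox9, the factor that drives cartilage genes, rose by 3.39 (adjusted p = 0.00105), with 1 of 3 sham arrays well above background. Mgp, an inhibitor of calcification, had a change of -0.16 (adjusted p = 0.39), and Alpl, the phosphatase of mineralising cells, 0.33 (adjusted p = 0.709). Genes of TGF-beta signalling showed 1 rise (the receptor Tgfbr2, by 0.77, adjusted p = 0.0219) and 3 falls (the inhibitor Smad6, the ligand Tgfb3 and the matricellular target Ccn2) in 14 members (2 higher and 2 lower without replicate 3), near the share of all genes, and the calls fell to 1 without sham replicate 3, to 2 without sham replicates 1 or 2 or CaCl2+IgG replicate 2, and to 0 with scaling to the median.

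**Figure D3:**
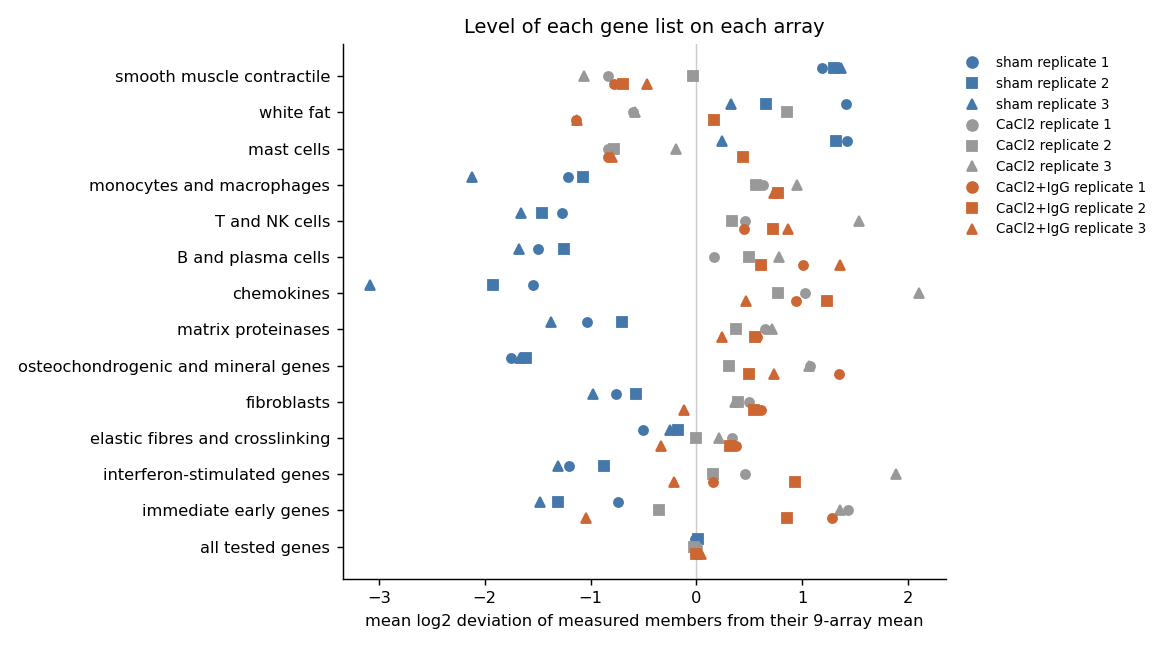
Mean log2 deviation of the measured members of 13 gene lists, and of all tested genes, from their 9-array means (x axis), for each array, coloured by group with a symbol for each replicate. CaCl2+IgG arrays lie apart from sham arrays for smooth muscle, macrophage, T cell, B cell and cartilage genes, whereas replicate 3 lies among the sham arrays for immediate early and elastic fibre genes.

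Fibroblast markers rose in 8 of 15 members (9 higher and 1 lower without replicate 3), and Acta2 was the only 1 of the list to fall. Fap, a protease of activated fibroblasts, read 2.52, 2.61 and 2.38 in sham and 5.63, 5.04 and 4.93 with CaCl2+IgG, and rose by 2.70 ± 0.21 (SE) (adjusted p = 0.000291). Cthrc1, a secreted protein of injured arteries, rose by 2.89 (adjusted p = 0.0093) from a sham level where 1 of 3 arrays was well above background. Of 13 endothelial markers 4 rose and 2, Kdr and Vwf, fell (6 higher and 2 lower without replicate 3). Among all genes 15.0% rose and 14.9% fell, and 18.5% and 22.6% without replicate 3, so the endothelial falls were near or below that share. Cldn5, a tight junction protein, rose by 2.31 (adjusted p = 0.00248) and Robo4, a guidance receptor, by 1.54 (adjusted p = 0.00275), while Cdh5 and Pecam1 had changes of 0.12 and 0.29 (adjusted p = 0.679 and 0.493). Kdr, a receptor for VEGF, fell by 0.84 (adjusted p = 0.0279), but its other kept probe changed by 1.14, and the call was lost without CaCl2+IgG replicate 1, CaCl2+IgG replicate 2, sham replicate 2 and sham replicate 3 in turn (adjusted p 0.064 to 0.0901). The endothelial calls fell to 3 without sham replicates 2 or 3 or CaCl2+IgG replicate 2 and with scaling to the median. The lymphatic markers Pdpn, Mmrn1 and Flt4 rose, 3 of 5 (3 higher and 0 lower without replicate 3). The call of Mmrn1 was lost without CaCl2+IgG replicate 1, CaCl2+IgG replicate 2, sham replicate 1, sham replicate 2 and sham replicate 3 in turn (adjusted p 0.0539 to 0.108). Pdpn, also made by fibroblasts, rose by 1.85 (adjusted p = 0.000822).

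Markers of tissues that lie around the vessel were listed too. For comparison, 15.0% of all genes rose and 14.9% fell, and 18.5% and 22.6% without replicate 3. White fat markers fell in 6 of 9 members with replicate 3 and in 3 without it. Adipoq, adiponectin, read 3.53, 2.31 and 1.71 in sham and -0.60, 1.28 and -0.70 with CaCl2+IgG, and fell by 2.52 ± 0.77 (SE) (adjusted p = 0.0386, and 0.0748 to 0.116 without CaCl2+IgG replicate 1, CaCl2+IgG replicate 3, sham replicate 1 and sham replicate 2 in turn). The mean deviation of the fat list was 1.42, 0.66 and 0.33 in sham, -1.14, 0.17 and -1.12 with CaCl2+IgG and -0.60, 0.86 and -0.58 with CaCl2, so arrays of each group differed widely, and the count was 1 or 2 without sham replicates 1 or 2 or CaCl2+IgG replicate 1. Among brown fat genes 4 of 8 fell and 1 rose (1 higher and 5 lower without replicate 3). Cidea fell by 2.79 (adjusted p = 0.000803) and Dio2, which activates thyroid hormone, rose by 1.87 (adjusted p = 0.00894). Ucp1, the defining gene of brown fat, did not pass the filter on dim probes. Skeletal muscle genes fell in 5 of 11 members and rose in 1 (1 higher and 7 lower without replicate 3). Acta1, also made by smooth muscle, fell by 2.49 (adjusted p = 0.00108) and Tnnc2 by 2.82 (adjusted p = 0.000658), whereas Tnni2 rose by 1.92 (adjusted p = 0.000288). Ckm, Myh1, Myh2 and Myh4, which define skeletal muscle, did not pass the filter. Among 8 nerve genes, Mbp and S100b of Schwann cells rose, by 1.75 and 0.99, and the neuronal genes Ncam1 and Th fell, by 1.53 and 0.91 (adjusted p = 0.000447, 0.00623, 0.00057 and 0.0326). The nerve list held 5 calls with and without replicate 3. Red cell genes read highest on CaCl2+IgG replicate 1, and none of the 4 passed the test. Of 4 adrenal and kidney genes, Star of steroid-making cells rose by 2.09 (adjusted p = 0.0162, 2 of 3 sham arrays well above background), and of the mesothelial genes only Wt1 was measured, at a change of 2.83 (adjusted p = 0.0472) with no sham array well above background. The call of Star was lost without CaCl2+IgG replicate 1, CaCl2+IgG replicate 2 or sham replicate 2, and without CaCl2+IgG replicate 3 the adrenal and kidney genes held 3 calls in place of 1. That of Wt1 was lost without any 1 of the arrays other than CaCl2+IgG replicate 3. The part of surrounding tissue in the vessel results was not tested.

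Genes of cell division rose in 13 of 23 members and fell in 0 (12 higher and 0 lower without replicate 3). Mki67, a marker of cycling cells, read -0.63, -0.90 and -1.53 in sham and 0.49, 1.27 and 1.30 with CaCl2+IgG, and rose by 2.04 ± 0.35 (SE) (adjusted p = 0.00397). Cdk1, the mitotic kinase, was at least 3.21-fold higher (means -2.54 and -5.30, adjusted p = 0.00135). The replication genes Pcna, Mcm4 and Mcm6 had changes of 0.35, 0.43 and -0.20 (adjusted p = 0.187, 0.106 and 0.356). The count was 8 without sham replicate 1 and 7 without sham replicate 3 or CaCl2+IgG replicate 2. Genes of lipid uptake and efflux rose in 7 of 12 and fell in 0 (6 higher and 0 lower without replicate 3). Abcg1, a cholesterol exporter, rose by 2.10 (adjusted p = 0.00176) and Olr1, a receptor for oxidised LDL, was at least 3.28-fold higher (means -2.50 and -6.08, adjusted p = 0.00853). Heat shock genes fell in 3 of 9 and rose in 0 (0 higher and 4 lower without replicate 3), with Hspa1a at 2.92, 3.14 and 2.32 in sham and 1.07, 0.53 and -0.70 with CaCl2+IgG, a fall of 2.49 (adjusted p = 0.00535). Oxidative phosphorylation genes fell in 5 of 14 members and rose in 0 (0 higher and 3 lower without replicate 3), none by more than Uqcrc1 at 0.53 (adjusted p = 0.0277), and the count was 0 with scaling to the median or without sham replicate 2 or CaCl2+IgG replicate 2. Glycolysis and hypoxia genes fell in 3 of 14 (Aldoa, Gapdh and Pfkp) and rose in 1 (Ldha), with 1 higher and 2 lower without replicate 3, and 0 were called with scaling to the median. Without sham replicate 2 or CaCl2+IgG replicate 2 there was 1, and without sham replicate 3 or CaCl2+IgG replicate 1 there were 2. Among all genes 15.0% rose and 14.9% fell, and 18.5% and 22.6% without CaCl2+IgG replicate 3. Fatty acid oxidation genes fell in 2 of 14 (Acadm and Hadha), close to the 14.9% of all genes, and rose in 1, the carnitine carrier Slc25a20 (by 2.94, adjusted p = 0.00211, 1 of 3 sham arrays well above background). The call of Hadha was lost without CaCl2+IgG replicate 2, CaCl2+IgG replicate 3, sham replicate 1, sham replicate 2 and sham replicate 3 in turn (adjusted p 0.0529 to 0.112). The fatty acid oxidation calls numbered 5 without CaCl2+IgG replicate 3 (1 higher and 4 lower) and 1 with scaling to the median.

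By change alone, the genes named here are the largest changes among genes well above background on all 6 arrays, called in both fits and with groups that did not overlap. Prg4, lubricin of joint surfaces, read -1.78, -2.31 and -1.27 in sham and 4.32, 4.42 and 4.22 with CaCl2+IgG, a rise of 6.11 ± 0.29 (SE) (adjusted p = 4.67e-05), but its other kept probe changed by 0.55. Anxa8, an annexin of epithelia, rose by 5.55 and Kng1, a kininogen, by 5.28 (adjusted p = 7.1e-05 and 9e-05). Cd72, a receptor of B cells and macrophages, rose by 4.55 and Sirpb1b, a myeloid receptor, by 4.36 (adjusted p = 0.000165 and 0.000658). Among decreases, Hhip, an antagonist of hedgehog ligands, read 2.62, 2.83 and 2.65 in sham and -0.83, -1.89 and -0.73 with CaCl2+IgG, the largest fall by this rule at 3.85 ± 0.49 (SE) (adjusted p = 0.0011). The progesterone receptor Pgr fell by 3.36 and Bves, a membrane protein of muscle, by 3.34 (adjusted p = 0.00302 and 0.000984). Sost, the Wnt inhibitor sclerostin, read -0.11, 0.74 and 0.64 in sham and -2.40, -2.22 and -3.86 with CaCl2+IgG, and fell by 3.25 ± 0.55 (SE) (adjusted p = 0.00359). Ptprz1, a receptor phosphatase, fell by 3.35 (adjusted p = 0.000228), while another of its 3 kept probes changed by 0.01.

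Some genes were off in 1 group. Of 15921 genes tested, 258 called genes had no probe well above background on any sham array, and 30 had none on any CaCl2+IgG array. The lowest signal well above background was -4.27, -4.19 and -4.20 on the sham arrays and -5.07, -4.81 and -4.28 with CaCl2+IgG. A gene of equal level could thus more readily be off in sham, and the part of this in both counts was not tested. The genes off in 1 group passed the filter only through the group where they were bright. A difference in level was thus set by that choice, and their p-values are no separate support for it. Members that passed through 1 group alone are also in the list counts given above, which rest on that choice to this extent. By smallest p, the first genes off in sham were Pkp1, a desmosome protein, at least 12.9-fold higher with CaCl2+IgG (means -0.53 and -6.35, adjusted p = 2.9e-05), Mzb1, the endocytic receptor subunit Amn, the kininogen Kng2 and the matrix protein tenascin Tnn, at least 11.1-fold (means -0.75 and -6.52, adjusted p = 9.76e-05). Off with CaCl2+IgG were Mybpc2, a myosin-binding protein of fast muscle, at least 9.12-fold lower (means -5.45 and -1.53, adjusted p = 0.000165), the Notch ligand Dner, at least 6.64-fold lower (means -6.07 and -1.99, adjusted p = 0.000825) and Chrna7, an acetylcholine receptor subunit, at least 2.38-fold lower (means -5.01 and -3.43, adjusted p = 0.00123).

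Replicate 3 of CaCl2+IgG decided the call of many genes. Of the 2180 genes called only without it, 685 were higher and 1495 lower, and in 1054 (48.3%) it lay inside the range of the 3 sham arrays. Among the 4358 genes called in both fits it did so in 43 (0.987%). Psap, the precursor of lysosomal saposins, read 0.42, 1.19 and 0.84 in sham, 5.60, 5.44 and 0.60 with CaCl2+IgG and 5.55, 5.68 and 5.81 with CaCl2. The other 5 CaCl2-treated arrays lay far above sham and replicate 3 read as sham. The change was 3.06 (adjusted p = 0.0762) with it and 4.70 ± 0.22 (SE) (adjusted p = 8.13e-05) without it. Arpc3, a subunit of the Arp2/3 complex that nucleates actin, read 0.02, 0.85 and 0.12 in sham, 4.62, 4.81 and 0.54 with CaCl2+IgG and 4.66, 4.42 and 4.77 with CaCl2. Cd82, a tetraspanin, read 5.05, 4.70 and 0.69 and the zinc finger gene Rlf 1.02, 1.41 and -3.03 with CaCl2+IgG, against 0.19, 0.75 and 0.83 and -2.78, -2.83 and -2.83 in sham. For both, as for Psap, replicate 3 read near sham, with adjusted p = 0.0564 and 0.0773 against 8.73e-05 and 4.89e-05 without replicate 3. Dpt, the matrix protein dermatopontin of fibroblasts, read -0.50, -0.52 and -1.10 in sham and 4.62, 4.14 and 0.25 with CaCl2+IgG. It rose in both fits, by 3.71 (adjusted p = 0.0227) and 5.09 (adjusted p = 8.73e-05), but not without CaCl2+IgG replicate 1, CaCl2+IgG replicate 2, sham replicate 1, sham replicate 2 and sham replicate 3 in turn (adjusted p 0.0532 to 0.0775). Among decreases, the alpha-adrenergic receptor Adra1b read 2.54, 2.47 and 3.26 in sham and -0.47, -0.19 and 2.67 with CaCl2+IgG, a change of -2.09 (adjusted p = 0.0619) that became -3.09 (adjusted p = 0.00044). Nav2, a neuron navigator gene, went from -2.21 to -3.14 (adjusted p = 0.0522 and 0.00126).

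**Figure D4:**
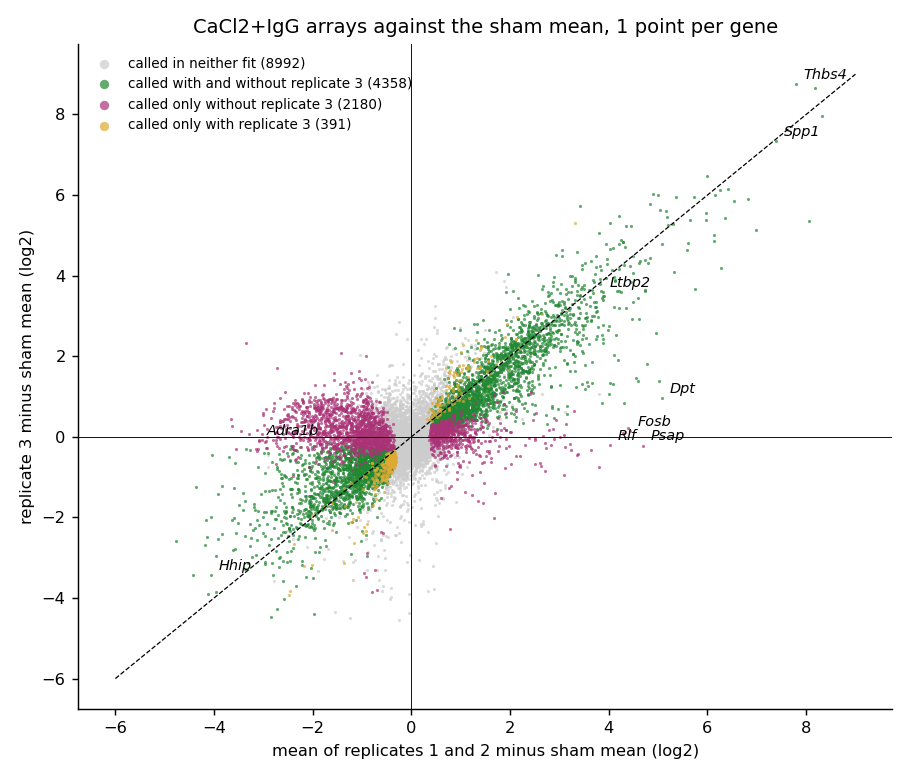
Difference of CaCl2+IgG replicate 3 from the sham mean (y axis, log2) against the difference of the mean of replicates 1 and 2 from the sham mean (x axis, log2), 1 point for each of 15921 genes, coloured by the fits that called it; the dashed line marks equal values. Points called only without replicate 3 gather along the horizontal line at 0, among them Psap, Fosb and Rlf, and Dpt lies near them.

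Immediate early genes, which respond to stimulation within minutes, showed the same split. With all arrays 5 of 15 rose and 0 fell, and the counts were 12 and 0 without replicate 3. The mean deviation of the list was -0.74, -1.31 and -1.48 in sham, 1.28, 0.86 and -1.04 with CaCl2+IgG and 1.43, -0.35 and 1.35 with CaCl2, so replicate 3 lay within the sham range and CaCl2 replicate 2 between the rest. Fos, a subunit of AP-1, read 2.26, 0.26 and 0.43 in sham and 6.28, 5.73 and 2.38 with CaCl2+IgG, and rose by 3.81 ± 1.20 (SE) (adjusted p = 0.0437) or, without replicate 3, by 5.02 ± 1.01 (SE) (adjusted p = 0.00663). Leaving out any other 1 of the 6 arrays ended the call of Fos (adjusted p 0.0504 to 0.132). Fosb read 0.31, 0.13 and 0.42 in sham, 5.01, 4.43 and 0.43 with CaCl2+IgG and 5.30, 0.80 and 5.69 with CaCl2, with adjusted p = 0.155 and 0.0271 in the 2 fits. CaCl2 replicate 2 also read near sham for it. Egr2 rose by 2.00 (adjusted p = 0.00935) and kept its call without each array. Each of the 5 other arrays left out in turn, except sham replicate 1, brought the 5 calls to 2. With the log2 75th percentile of each array as a covariate, an alternative chosen after seeing the data, 0 immediate early genes and 1 interferon-stimulated gene were called.

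The dimmest genes carried the largest shift in counts. In the dimmest of 5 equal groups by mean level, falls numbered 445 with replicate 3 and 1209 without it. There the median difference from the sham mean was -0.46 on replicate 1, -0.48 on replicate 2 and 0.21 on replicate 3. In the 3 brightest groups replicate 3 lay at -0.17 to -0.14 and the others within -0.04 to 0.02. Of 114 odorant receptor genes (Olfr), a family known for smell and picked here after its values were seen, 14 fell and 2 rose with all arrays, and 79 fell and 2 rose without replicate 3. Their median difference from the sham mean was -1.55, -1.23 and 0.39 on replicates 1, 2 and 3. The 50 vomeronasal receptor genes had 6 and 38 falls in the 2 fits. Of all genes, 14.9% fell with all arrays and 22.6% without replicate 3, so with all arrays neither family fell beyond that share. With CaCl2 alone the median change was -1.38 for odorant and -1.44 for vomeronasal receptor genes. Whether the falls of these families come from transcripts or from the level of the background was not tested.

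**Figure D5:**
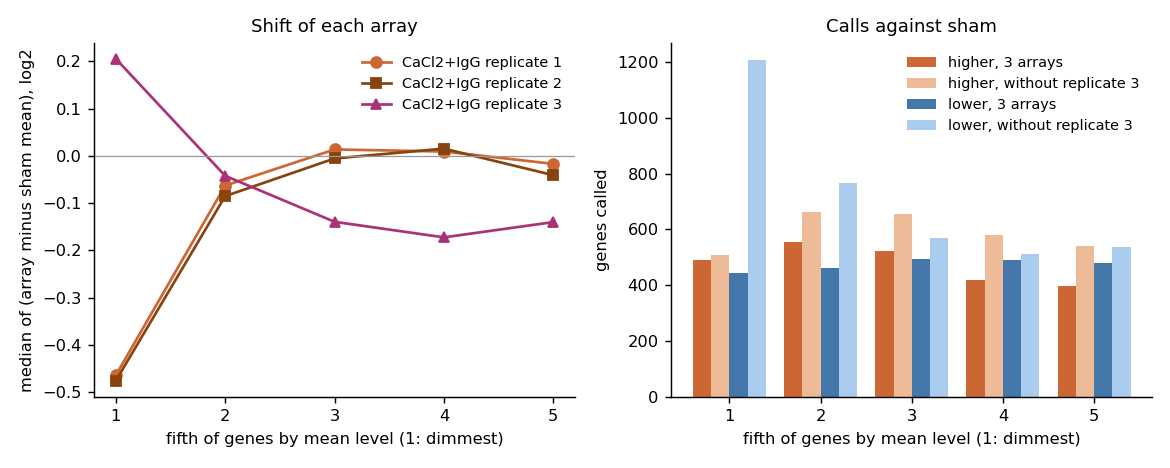
Left, median difference of each CaCl2+IgG array from the sham mean (log2) in 5 equal groups of genes ordered by mean level. Right, number of genes called higher or lower in each group with all arrays and without replicate 3. Replicate 3 lies above the other arrays in the dimmest group and below them in the 3 brightest, and falls in the dimmest group rise from 445 to 1209 without it.

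Fewer genes were called only with replicate 3. Cd209a, a lectin of dendritic cells, read 0.29, -0.68 and -2.69 in sham and 0.70, 1.49 and 1.40 with CaCl2+IgG, with adjusted p = 0.0435 and 0.0702 in the 2 fits. H2-DMa, which loads peptides onto MHC class II, read 0.77, 0.85 and -1.64 in sham and 1.82, 2.08 and 1.66 with CaCl2+IgG (adjusted p = 0.0485 and 0.0567). The call of Cd209a was lost without CaCl2+IgG replicate 1, CaCl2+IgG replicate 2, CaCl2+IgG replicate 3, sham replicate 2 and sham replicate 3 in turn (adjusted p 0.0666 to 0.119), and that of H2-DMa without CaCl2+IgG replicate 1, CaCl2+IgG replicate 2 and CaCl2+IgG replicate 3 in turn (adjusted p 0.0567 to 0.128). Sham replicate 3 was the lowest array for both. Among the falls, 3 of the 5 largest were the fat genes Cidec, Adipoq and Retn.

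The same genes can be set beside their values with CaCl2 alone, a comparison that shares the sham arrays. The direct comparison of CaCl2+IgG with CaCl2 called 0 of 15921 genes, with or without replicate 3 (227 and 234 at an unadjusted p below 0.05, limma), and 2 without CaCl2+IgG replicate 1. The CaCl2 arrays on these genes gave 5957 calls against sham. Smooth muscle genes had a median change of -1.94 with CaCl2 and -2.07 with CaCl2+IgG, macrophage genes 2.53 and 2.25, chemokines 3.74 and 2.89, and Syk signalling 2.16 and 2.04. Syk itself rose by 1.64 with CaCl2 (adjusted p = 0.0031) and 1.34 with CaCl2+IgG, a difference between them of -0.29 ± 0.27 (SE) with adjusted p = 1. For Fcgr1 the difference was -0.17 ± 0.38 (SE) (adjusted p = 1) and for Jchain 0.96 ± 0.66 (SE) (adjusted p = 1). Sost fell with CaCl2+IgG and had a change of -1.47 with CaCl2 (adjusted p = 0.0638), a difference of -1.78 ± 0.55 (SE) (adjusted p = 1). Such p-values do not show that the treatments act alike.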

How the data were processed

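RNA of abdominal aorta, 9 samples in all, was hybridised to 1-colour Agilent arrays with 55681 probes, 3 samples in each of 3 groups. The values used here are the processed signals of Agilent Feature Extraction, background-subtracted and detrended per the file headers. Those headers give another software version than the 9.5.1.1 of the submitters' processing notes. The submitters' own intensity values had the same median, 29.7, on every array, whereas medians of the processed signals ran from 29.4 to 38.0. They served only in an alternative fit, with 4888 calls, 2724 higher and 2164 lower. No probe was saturated, and 54.9% to 59.9% of probes were well above background per array. Per the labels' protocols 2 RNA purification kits were named, with no statement of which samples each served.

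Signals were divided by the 75th percentile of each array and put on the log2 scale. A probe was kept if well above background on all 3 arrays of sham or of CaCl2+IgG (31121 probes), and the brightest kept probe stood for its gene, which gave 15921 genes. Gene symbols came from RefSeq by accession (27229 probes), symbol (3586) or synonym (565), with 1147 named by the file alone. One linear model over all 9 arrays was fitted in limma (version 3.58.1, R 4.3.3), with empirical Bayes moderation, 6 residual degrees of freedom and Benjamini-Hochberg adjustment, and the fit was repeated without CaCl2+IgG replicate 3. Because a probe could pass the filter through either group alone, genes off in 1 group had to differ in level. The 4 genes with a missing value on an array were fitted on the other arrays. The procedure was tested on simulated data.

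The lists hold 39 groups of genes, of which 533 members were tested, 56 did not pass the filter and 4 had no probe. The genes and lists were chosen with earlier results of these data known. Named genes are the 10 largest increases and decreases well above background on all 6 arrays, the 5 of smallest p that were off in each group, the 5 largest per direction called only with or only without replicate 3, up to 4 called members of largest change per list, and a set of genes of the study's subject. A few genes under these rules are not reported here. Other list members, and the gene families, are named after their values were seen. Motifs were searched on both strands of RefSeq promoters (GRCm38.p6), 250 bases before to 50 after the start. Alternatives changed the scaling, background correction, filter, probe summary, slide, slide row, replicate block, weights, prior and samples.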

Additional observations from a re-analysis of the deposited data

Results flagged for a closer look

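Probes without a gene symbol are not used in the comparison by gene. Of 9592 such probes that passed the filter, 16.3% were called in limma after adjustment over all kept probes, against 22.5% among all 31121 kept probes. These were 512 higher and 1049 lower with CaCl2+IgG than in sham. Of the 512 that were higher, 127 were well above background on no sham array. What these probes measure was not tested.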

How the results depend on the processing

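Several settings moved the counts. Against 4749 calls, 2382 higher and 2367 lower, scaling to the median gave 2950 calls with 855 lower, counting all 31121 kept probes in place of genes gave 3842 lower (12.3% of probes, against 14.9% of genes), and array weights gave 8278 calls, 3645 higher and 4633 lower. With the slide as a block, and within the slide of 8 arrays, 3274 were called and 1457 were lower. Both are the same fit as that without sham replicate 3, the only array on its slide. Within slide row 2, which holds 2 sham and 2 CaCl2+IgG arrays, 1378 were called, 913 higher and 465 lower. Leaving out 1 array at a time, calls ranged from 3036 to 6538, higher from 1651 to 2947 and lower from 1385 to 3591, and CaCl2+IgG against CaCl2 from 0 to 2. The cause was not tested. With the log2 75th percentile as a covariate, and without sham replicate 3 and CaCl2+IgG replicate 3 together, both chosen after seeing the data, 3625 and 5338 were called. The mean of the probes of Kdr gave 0.15 (adjusted p = 0.496) in place of a fall. The labels number the replicates alike in each group. The deviations of same-numbered sham and CaCl2+IgG arrays correlated at 0.026, 0.173 and 0.237, and not every array correlated best with its own number. Sham replicate 3 correlated at -0.181 and -0.182 with CaCl2+IgG replicates 1 and 2. Such values from 3 arrays a group cannot show whether same-numbered samples were paired or processed together, which was not tested. The replicate block gave 4657 calls, 2291 higher and 2366 lower. Among the named genes and these alternatives, 4075 values kept direction and side of the threshold, 532 lost the call, 65 gained it and 1 changed direction. The fit without sham replicate 3 is counted there again under each slide setting. Dim probes limit the fold of genes near background to a lower bound.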

Other observations

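Some gene families outside the lists were looked at after their values had been seen. For comparison, 15.0% of all genes rose and 14.9% fell, and 18.5% and 22.6% without replicate 3. All 8 measured Gimap genes, GTPases of lymphocytes, rose with CaCl2+IgG, with a median change of 1.61, and all 8 did without replicate 3. Of 12 paired receptors of myeloid cells (Sirp, Pir and Lilr genes) 11 rose and 0 fell, with a median of 2.06, and 11 and 1 did without replicate 3. C-C chemokine receptors rose in 5 of 8 members (median 2.64), cathepsins in 9 of 13 (median 1.07) and C-type lectins in 8 of 20 (median 1.69), and without replicate 3 these rises numbered 5, 8 and 11. Collagen chains of all types rose in 19 of 37 and fell in 7, and without replicate 3 in 20 and 7, so their falls were near or below the share of all genes. Ribosomal proteins stayed near sham, with 0 of 80 called in limma and a median of 0.01, and 2 called without replicate 3. Of 47 proteasome subunits 3 rose and 4 fell (4 and 3 without replicate 3), a smaller share than the 15.0% and 14.9% of all genes.

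Single arrays stood out in families that are rare in the aorta. Major urinary proteins, made mainly by liver, rose in 1 of 7 members with all arrays and in 6 without replicate 3. Their median difference from the sham mean was 1.63, 3.41 and 0.30 on CaCl2+IgG replicates 1, 2 and 3. Red cell genes had a mean deviation of 3.20 on CaCl2+IgG replicate 1, against -1.06 to 0.83 on the 8 other arrays.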
